A study of Mus musculus with 24 samples.

Results

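The genes described here copy DNA at the replication fork or make the nucleotides that feed it. They were chosen by name, as a list of 38, and each was represented by the probe set of its own gene with the highest mean over the 24 arrays. Of the 38 genes, 36 had such a probe set and are the members below, while Chaf1a and Gins2 had none. The array covered 12393 genes in this way, of which 8616 passed the filter on low values, the 36 members among them.

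The RNA came from C2C12 cells, a line of mouse skeletal muscle myoblasts, treated with siRNA against IFT88 (written IFT88KD) or with a negative control siRNA (control). IFT88 is a subunit of the intraflagellar transport complex that builds the primary cilium. Cells of both kinds were taken in 4 states, with 3 Affymetrix mouse arrays for each of the 8 groups. Proliferating cells grew attached in DMEM with 20% FBS, and quiescent cells were kept in suspension in the same medium. Replated cells had been returned from suspension to a surface for 2 h in that medium, and differentiating cells had spent 48 h attached in DMEM with 2% NHS after reaching 80% confluence. The labels number the arrays of a group 1 to 3 without saying that they came from separate cultures, so p-values measure the spread between these arrays, which may be technical. All values are the deposited log2 expression values, in which a difference of 1 is a doubling of signal, and a probe set's level is never set against that of another gene.

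DNA replication starts when origin proteins are activated by the kinase Cdc7 with its partner Dbf4, which lets Cdc45 and the GINS complex join the helicase. Polymerase alpha with primase then lays down primers, the clamp loader RFC places the clamp PCNA, and polymerases delta and epsilon extend the new strands while RPA covers the single strands. Many of these genes are known targets of E2F transcription factors, which are held in check by pocket proteins in cells that have left the cycle. Myoblasts leave the cycle either reversibly, as quiescent cells, or for good, as they fuse into muscle.

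The knockdown was partial where it was seen. In quiescent cells Ift88 measured 4.45, 4.25 and 4.24 in control and 3.89, 3.56 and 3.42 in IFT88KD arrays, a change of -0.69 (SE 0.16, limma adjusted p = 0.0112). The change was -0.52 in proliferating cells (adjusted p = 0.294) and -0.59 in replated cells (adjusted p = 0.0525), again with no overlap between the arrays. With the replicate number as a block these 2 became adjusted p = 0.0432 and 0.00802. In differentiating cells it was -0.01 (adjusted p = 0.999), so the siRNA effect on its target was not detected there. The median value of an array was 3.58 to 3.62 for proliferating cells, 3.79 to 3.85 for quiescent cells, 3.68 to 3.78 for differentiating cells and 2.92 to 2.98 for replated cells, so comparisons with replated cells also carry a difference of scale. Of the myoblast markers, Myod1, Myf5, Des, Cdh15 and Itga7 were above the 40th percentile of an array in every group, on at least 1 array, while Pax7 was below it on all arrays.

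Promoter windows were searched for short sequence words. RefSeq windows (build GRCm38.p6) running from 250 bases before to 50 bases after a transcription start were matched for 31 of the 36 members. The windows below include those of Uhrf1, Tk1 and Pola1, described later. Of the members with a window, these 3 had the largest changes in quiescent IFT88KD cells. Pole had a larger change than Pola1 but no window. The others are those of Dut, whose change in quiescent IFT88KD cells was the lowest on the probe set used, and of Rfc1, whose change was nearest to 0. Capitals mark E2F words or CCAAT boxes, and each strand is that of the gene, read 5′ to 3′. Uhrf1 has 2 annotated starts. The Dut and Rfc1 windows lie inside their genes, whose annotated 5′ ends are upstream at 125247248 and 65338617. Sequence before those ends was therefore not searched. The Tk1 and Pola1 windows reach only in part beyond their genes' 5′ ends, at 117826087 and 93632387.
Uhrf1, upstream start (chr17:56303087-56303386, plus strand): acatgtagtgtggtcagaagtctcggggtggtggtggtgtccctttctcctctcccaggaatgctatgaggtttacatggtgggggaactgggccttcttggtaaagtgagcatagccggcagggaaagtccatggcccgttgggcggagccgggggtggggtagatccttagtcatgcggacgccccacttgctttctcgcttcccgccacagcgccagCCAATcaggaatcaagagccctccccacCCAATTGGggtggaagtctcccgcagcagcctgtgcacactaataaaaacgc
Uhrf1, downstream start (chr17:56304063-56304362, plus strand): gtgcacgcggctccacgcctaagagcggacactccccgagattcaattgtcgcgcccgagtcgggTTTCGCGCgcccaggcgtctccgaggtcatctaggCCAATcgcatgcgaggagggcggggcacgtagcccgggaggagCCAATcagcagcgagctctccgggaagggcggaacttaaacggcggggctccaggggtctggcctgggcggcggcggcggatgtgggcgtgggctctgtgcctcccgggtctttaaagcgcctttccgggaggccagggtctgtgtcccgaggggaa
Tk1 (chr11:117825965-117826264, minus strand): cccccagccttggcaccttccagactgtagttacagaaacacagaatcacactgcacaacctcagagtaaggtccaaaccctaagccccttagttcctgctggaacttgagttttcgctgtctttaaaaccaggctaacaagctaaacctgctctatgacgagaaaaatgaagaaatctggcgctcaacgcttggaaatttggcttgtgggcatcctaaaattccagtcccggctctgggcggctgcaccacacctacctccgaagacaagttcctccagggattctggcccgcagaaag
Pola1 (chrX:93632106-93632405, minus strand): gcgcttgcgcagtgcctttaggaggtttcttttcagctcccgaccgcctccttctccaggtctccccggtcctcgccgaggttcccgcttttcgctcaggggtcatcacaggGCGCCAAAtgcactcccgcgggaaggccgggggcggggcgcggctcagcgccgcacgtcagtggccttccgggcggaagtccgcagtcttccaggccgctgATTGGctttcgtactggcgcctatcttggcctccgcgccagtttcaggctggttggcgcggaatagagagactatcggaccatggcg
Dut (chr2:125247265-125247564, plus strand): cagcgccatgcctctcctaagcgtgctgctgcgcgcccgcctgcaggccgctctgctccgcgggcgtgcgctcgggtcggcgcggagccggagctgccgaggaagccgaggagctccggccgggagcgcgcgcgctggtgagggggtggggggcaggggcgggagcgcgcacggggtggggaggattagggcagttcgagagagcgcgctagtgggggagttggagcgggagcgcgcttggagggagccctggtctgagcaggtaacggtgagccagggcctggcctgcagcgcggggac
Rfc1 (chr5:65335590-65335889, minus strand): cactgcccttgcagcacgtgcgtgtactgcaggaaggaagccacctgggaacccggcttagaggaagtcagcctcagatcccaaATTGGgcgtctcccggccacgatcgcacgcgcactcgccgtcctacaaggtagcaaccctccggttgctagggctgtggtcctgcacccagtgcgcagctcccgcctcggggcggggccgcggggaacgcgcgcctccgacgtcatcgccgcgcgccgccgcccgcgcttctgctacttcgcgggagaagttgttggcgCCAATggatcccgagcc

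Each window of the table was searched on both strands for 4 E2F words (TTTCCCGC, TTTGGCGC, TTTGCCGC and TTTCGCGC), for the CCAAT box (CCAAT) and for the CHR, the cell cycle homology region (TTTGAA or TTCGAA). E2F words were in the windows of 8 of the 31 members (25.8%), against 4.97% of the 6988 genes that passed the filter and had a window. CCAAT boxes were in 18 of 31 members (58.1%), against 43.2%, and CHR words in 7 of 31 (22.6%), against 15.9%. The E2F words were found at Uhrf1, Pola1, Pold1, Pole2, Rfc3, Lig1, Dnmt1 and Orc1. The word at Uhrf1 began at position -185 of its downstream start, and that at Pola1 at position -138 on the opposite strand, counting back from the start. At the upstream start of Uhrf1 a CCAAT box and its reverse overlap. The windows of Tk1 and Dut held none of these words, which says only that these letters are not in these windows. Among the 7 members with a window that rose in quiescent IFT88KD cells, 2 held an E2F word, 5 a CCAAT box and 1 a CHR word. Among the 24 that were not called there, the numbers were 6, 13 and 6.

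In control cells every member was lower in quiescence than in proliferation. All 36 passed the threshold as lower, against 29.4% of all genes tested, and the median change was -2.43 against 0.14 over all genes. The changes ran from -0.61 at Rpa3 to -5.35 at Uhrf1. A fall in bulk RNA cannot tell fewer cells with the transcript from less transcript per cell. In the same comparison markers of other cell types and of muscle were called higher: 4 of 4 fibroblast markers tested (median 3.26, up to 7.65), 3 of 3 macrophage markers (median 1.73) and 7 of 9 muscle differentiation markers (median 2.37). Of 5 myoblast markers tested, 4 were called lower (median -1.29). The summed signal of the fibroblast list was between 41.3 and 53.1 on proliferating and between 1250 and 1610 on quiescent control arrays. That of the macrophage list was between 37.5 and 45.4 and between 292 and 294, and that of the muscle list between 131 and 1200 and between 1800 and 2650. Their part in the members' falls was not tested. Over all genes, 6150 of 8616 were called in either direction. Pi16, Lum and Cd68 were at or below the 40th percentile on all proliferating arrays and passed the filter only through other groups. The direction of these 3 was therefore partly fixed in advance. The muscle marker Myh1 was at or below that percentile on all control proliferating arrays, and Myh8 on all arrays outside differentiating cells. Thy1, Dpt, Adgre1, Ptprc, Lyz2, Cd163, Fcgr1 and Itgam were at or below that percentile on all control quiescent arrays. The heat map of all arrays shows the 6 proliferating arrays alike and the suspended and replated arrays low across nearly all genes.

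**Figure D1:**
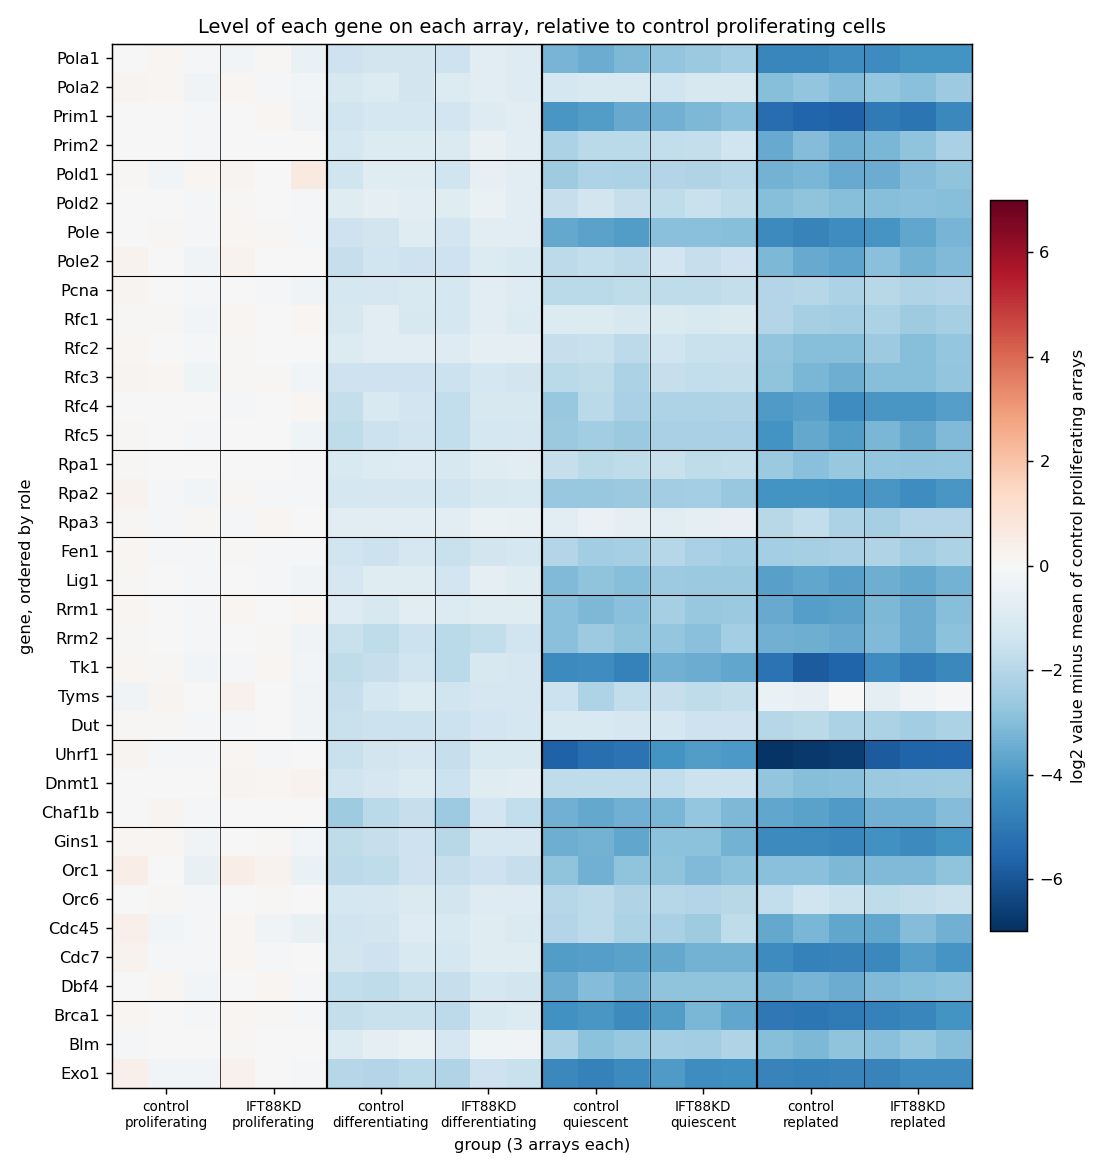
Each of the 36 genes (rows, ordered by role) on each of the 24 arrays (columns, 3 per group), coloured by its log2 value minus the mean of the control proliferating arrays (blue is lower, red is higher). Differentiating arrays are paler blue than quiescent and replated ones for most genes, and Tyms is near its proliferating level in replated cells.

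The chromatin copying genes held both the largest fall and a modest one. Uhrf1, which reads hemimethylated DNA behind the fork and recruits Dnmt1, measured 8.61, 8.28 and 8.36 in control proliferating arrays and 2.78, 3.14 and 3.27 in control quiescent arrays. That is a change of -5.35 (SE 0.15, limma adjusted p = 1.13e-17), or 40.9-fold lower, with the groups far apart. A dimmer probe set of Uhrf1 gave -3.83. Dnmt1, the methyltransferase that copies the methylation pattern, changed by -1.77 (SE 0.14), from 8.05 ± 0.03 to 6.28 ± 0.01 (SD, n = 3). Chaf1b, a subunit of the chromatin assembly factor that places histones on new DNA, changed by -3.43.

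Within enzymes made of several subunits, the falls were unequal in size. Pola1, the catalytic subunit of polymerase alpha, went from 6.20, 6.34 and 6.15 to 2.96, 2.75 and 3.09, a change of -3.29 (SE 0.15), while its accessory subunit Pola2 changed by -1.14 (SE 0.13). Prim1, which makes the primer, changed by -3.83 (SE 0.17) and its partner Prim2 by -2.0 (SE 0.18). Pole, the catalytic subunit of polymerase epsilon, changed by -3.76 (SE 0.19) and Pole2 by -1.80 (SE 0.15). For polymerase delta, the catalytic Pold1 changed by -2.29 (SE 0.20) and Pold2 by -1.51 (SE 0.11). In each of these pairs the catalytic or priming subunit had the larger fall, and the difference within a pair was not tested.

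Clamp and loader genes (median change -1.92) and RPA genes (-1.76) had the smallest median falls of any role. Pcna, the sliding clamp, measured 10.54, 10.30 and 10.19 in proliferating and 8.43, 8.43 and 8.54 in quiescent control arrays, a change of -1.88 (SE 0.11). The clamp loader genes changed by -0.99 (Rfc1) to -2.56 (Rfc5). Of the RPA subunits, Rpa2 changed by -2.64 (SE 0.12), Rpa1 by -1.76 (SE 0.10) and Rpa3 by -0.61 (SE 0.13, adjusted p = 0.000221). Rpa3 still separated the groups, with 7.04, 6.81 and 7.06 against 6.19, 6.53 and 6.34. Lig1, the ligase that seals Okazaki fragments, changed by -2.97 and Fen1, the nuclease that trims them, by -2.27.

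Nucleotide synthesis genes changed by -1.11 to -4.52. Tk1, the thymidine kinase of the salvage pathway, went from 8.13, 8.09 and 7.79 to 3.54, 3.64 and 3.26, a change of -4.52 (SE 0.19, adjusted p = 5.07e-15). The ribonucleotide reductase subunits changed by -2.99 (Rrm1) and -2.76 (Rrm2). Dut, which clears dUTP, changed by -1.11. Tyms, thymidylate synthase, changed by -1.80, from a dim probe set that was above the 40th percentile on proliferating and replated arrays only, because the brighter one is shared with the pseudogene Tyms-ps.

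Among origin genes, the kinase Cdc7 changed by -3.85, its partner Dbf4 by -3.28, Gins1 by -3.45 and Orc1 by -2.99. The helicase cofactor Cdc45 changed by -2.03 and Orc6 by -1.97. Of the fork repair genes, the nuclease Exo1 changed by -4.57, Brca1 by -4.26 and the helicase Blm by -2.56. Tyms, Orc1, Cdc7, Brca1 and Exo1 were at or below the 40th percentile on all 3 control quiescent arrays, so the size of their falls rests on dim values. Orc1 and Exo1 passed the filter only through proliferating and differentiating arrays, so the direction of their falls was partly fixed in advance. Dimmer probe sets gave -3.24 for Exo1, -1.73 and -1.46 for Brca1 and -0.95 for Cdc7.

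After 48 h in differentiation medium the members were lower as well, but by less. All 36 were called lower than in control proliferating cells, against 30.3% of all genes, with a median change of -1.27 against -0.06 over all genes. The changes lay between -0.70 (Blm) and -2.01 (Chaf1b). Uhrf1, at 6.85, 7.16 and 7.22, changed by -1.34 (SE 0.15), and Tk1, at 6.20, 6.39 and 6.62, changed by -1.60 (SE 0.19). Of the markers, 9 of 9 muscle differentiation genes (median 5.10) and 3 of 4 fibroblast genes (median 1.12) were higher, and 1 of 3 macrophage genes was lower. Of 5 myoblast genes tested, 4 were higher and 1 was lower (median 1.08). Myh1 and Myh8 were at or below the 40th percentile on all control proliferating arrays. Myh8 passed the filter only through differentiating arrays, so its direction was partly fixed in advance. The part of all these markers in the members' falls was not tested. The order of the genes differed from that in quiescence, as the plot of both changes shows: Uhrf1 was last in quiescence and in the middle here.

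**Figure D2:**
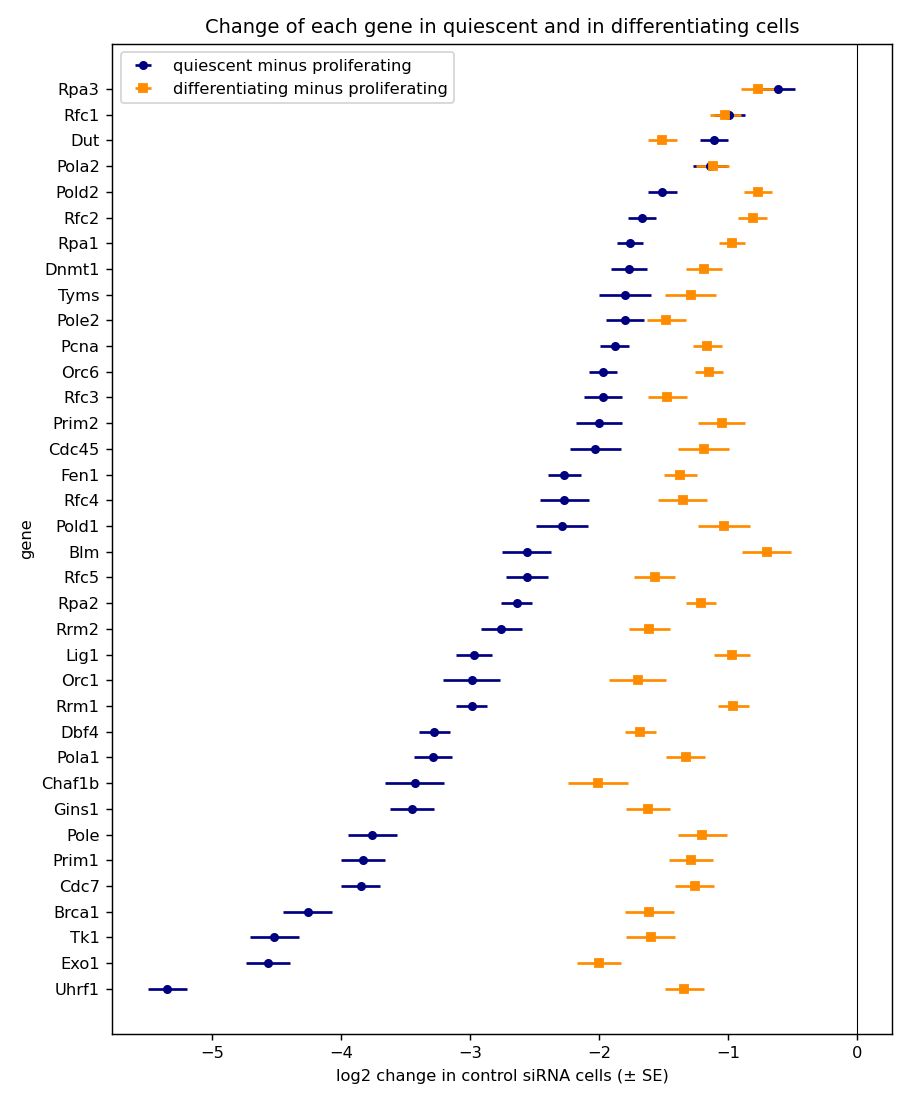
Log2 change of each of the 36 genes in control cells (points, with SE bars) in quiescent cells (circles) and in differentiating cells (squares), each minus proliferating cells, ordered by the quiescent change. Quiescent changes spread from -0.61 to -5.35, while differentiating changes stay between -0.70 and -2.01; both share the control proliferating arrays.

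Set directly against quiescent cells, differentiating control cells had 31 members higher and 1 lower, where 26.3% of all genes were called higher and 39.8% lower. The median difference of the members was 1.07, against -0.13 over all genes. Uhrf1 was 4.02 higher (SE 0.15, adjusted p = 2.35e-15), or 16.2-fold, on the probe set used, while its dimmer probe set gave 2.14. Tk1 was higher by 2.92, Pole by 2.56 and Prim1 by 2.54. Brca1 (2.65), Cdc7 (2.59) and Exo1 (2.58) were also called, but their control quiescent values were at or below the 40th percentile on all arrays. The other probe set of Exo1 gave 1.58. Other probe sets, under that percentile in both groups, gave 0.03 for Cdc7 and 0.66, 0.24 and 0.41 for Brca1. Exo1, and Orc1 which was called too, passed the filter only through proliferating and differentiating arrays. Their direction was therefore partly fixed in advance. Prim2 was 0.95 higher on the probe set used and 0.31 on its other one. Muscle differentiation markers were higher in this comparison (9 of 9, median 2.72). Of these, Myh8 passed the filter only through differentiating arrays, so its direction was partly fixed in advance. Of 5 myoblast markers tested, 4 were higher and 1 was lower (median 1.99). The tested macrophage (3 of 3) and fibroblast (4 of 4) markers were lower. The part of all these markers in the members' differences was not tested. Cd68, Csf1r and Lum were at or below the 40th percentile on all control differentiating arrays. Dut was the 1 member called lower, at -0.40 (SE 0.11, adjusted p = 0.00243), with 6.55, 6.60 and 6.60 against 7.01, 7.04 and 6.91. Pola2 (0.02), Rfc1 (-0.02), Rpa3 (-0.16) and Pole2 (0.32) were not called. The call for Tyms (0.51, adjusted p = 0.0259) was lost without control quiescent replicate 2, or without control differentiating replicate 2 or 3. Its values were at or below the 40th percentile on all arrays of both groups. The other probe sets of Tyms, also under it, gave -0.01 and 0.23.

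At 2 h after replating, most of these transcripts were lower still in control cells on the deposited scale. There 27 members were called lower and 2 higher than in quiescent cells, where 66.2% of all genes were lower and 9.73% higher, and the median change was -1.01 against -0.60 over all genes. Quantile normalisation of all arrays left 18 lower and 4 higher, with a median of -0.39, where 36.3% of all genes were lower and 27.5% higher and their median was -0.09. The members' share called lower on the deposited scale is close to that of all genes. The 4 tested fibroblast markers and 3 of 9 muscle differentiation markers were also lower there, with 2 and 0 after quantile normalisation, and 2 of 3 macrophage markers were lower, with 1 lower and 1 higher after it. Of 5 myoblast markers tested, 2 were lower and 1 was higher, with 1 lower and 2 higher after quantile normalisation. The part of all these markers in the members' changes was not tested. The plot of both scales gives each member's value.

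**Figure D3:**
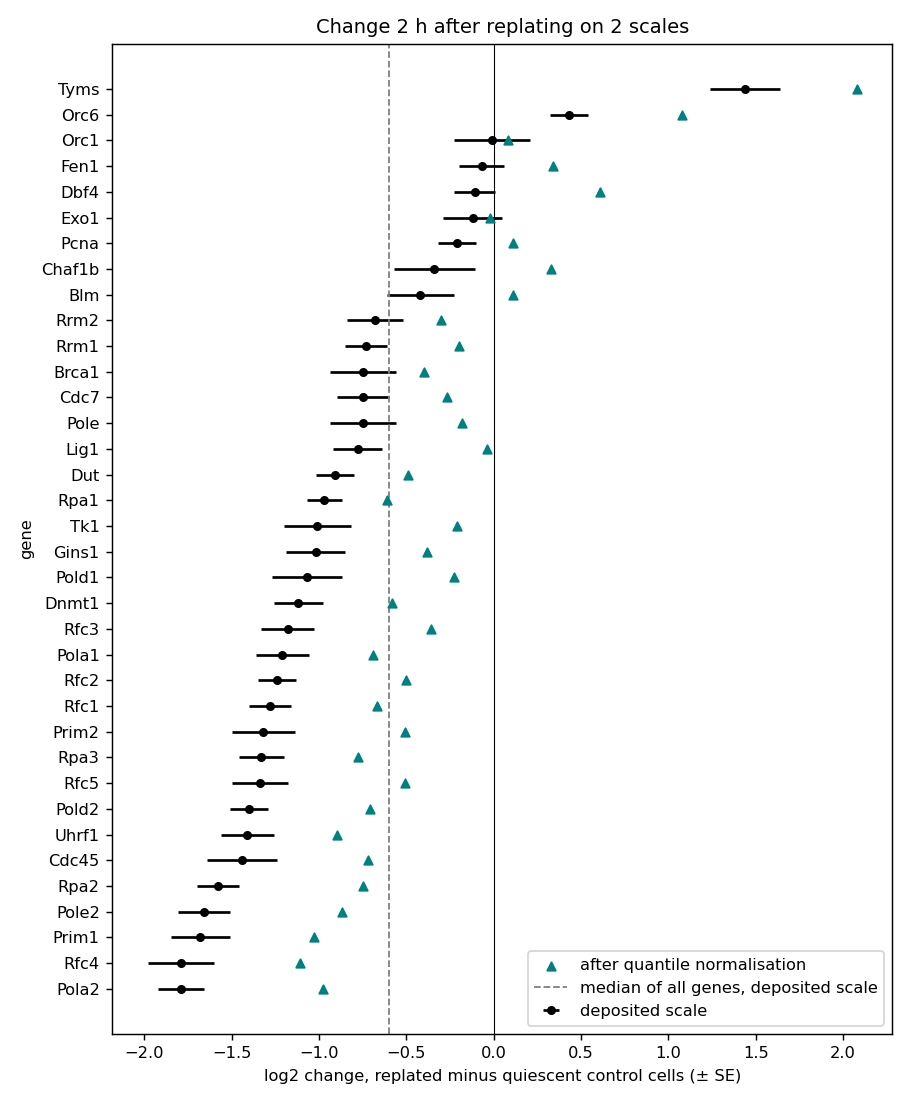
Log2 change of each gene from quiescent to replated control cells on the deposited scale (circles, with SE) and after quantile normalisation (triangles); the dashed line is the median of all genes on the deposited scale, -0.60. Tyms and Orc6 lie to the right of 0 on both scales, and Pola2, Rfc4 and Prim1 lie farthest left.

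Tyms and Orc6 were the exceptions. Tyms measured 1.68, 1.04 and 1.45 in quiescent and 2.70, 2.60 and 3.20 in replated control arrays. Its change was 1.44 (SE 0.20, adjusted p = 9.47e-07) and became 2.08 after quantile normalisation. Those quiescent values were all at or below the 40th percentile. The other probe sets of Tyms, under that percentile in both groups, gave -0.18 and 0.14. Orc6, a subunit of the origin recognition complex, changed by 0.43 (SE 0.11, adjusted p = 0.00207) and by 1.08 after quantile normalisation. Dbf4 and Fen1 changed by -0.11 and -0.07 on the deposited scale and were called higher, at 0.61 and 0.34, after quantile normalisation. For Fen1 this holds for the probe set used, since its other one gave -0.84 on the deposited scale. Among the falls, Pola2 changed by -1.79 (-0.98 after quantile normalisation), Rfc4 by -1.79 (-1.11), Prim1 by -1.68 (-1.03) and Pole2 by -1.66 (-0.87), each called on both scales. Relative to the median of all genes, Pcna stood at 0.38 above, with 8.31, 8.32 and 8.13 against 8.43, 8.43 and 8.54.

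IFT88 knockdown did not detectably move these genes while cells were growing. In proliferating cells 0 of the 36 members passed the threshold in limma, with 0 at an unadjusted p below 0.05, where 0.348% of all genes were called. The changes lay between -0.20 (Cdc45) and 0.24 (Pold1), with a median of 0.00. Uhrf1, for example, measured 8.58, 8.33 and 8.41 in IFT88KD and 8.61, 8.28 and 8.36 in control arrays, which overlap.

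In quiescent cells, 8 members were higher with the knockdown and none was lower, by the same limma test. Over all genes 2.94% were called higher and 2.31% lower. An unadjusted p under 0.05 in that test was found for 15 members and for 1421 of all 8616 genes. The median change of the members was 0.25, against -0.01 over all genes, and 29 of 36 lay above 0. For 19 members all 3 IFT88KD arrays were above all 3 control arrays, and for 1 (Dut) all were below, where 11.2% and 13.6% of all genes did so. The mean of the 36 members was 4.68 ± 0.02 in IFT88KD and 4.39 ± 0.03 in control quiescent arrays (SD, n = 3), still well under the 7.0 ± 0.11 of control proliferating cells. The count was 4 without IFT88KD replicate 3, without control replicate 1 or without control replicate 3, each in quiescent cells, and 5 with only the quiescent arrays in the fit.

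**Figure D4:**
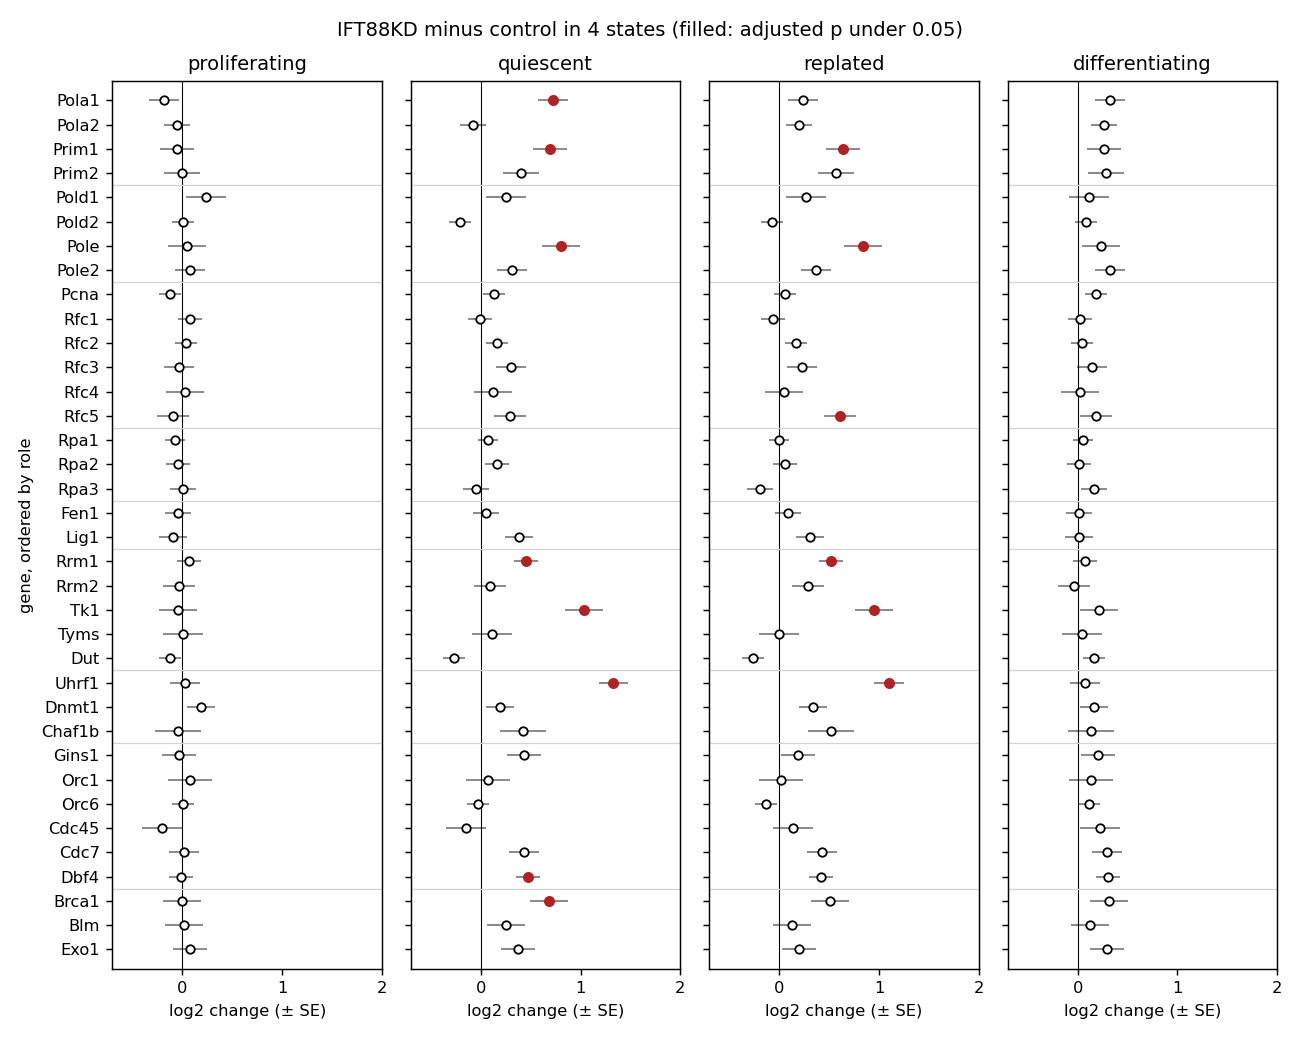
Log2 change of each gene between IFT88KD and control cells in each of 4 states (points, with SE bars), ordered by role; filled points passed an adjusted p of 0.05 in limma over all genes. Filled points are 8 in quiescent and 6 in replated cells, and there are none in proliferating or differentiating cells.

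Uhrf1 had the largest difference. Its values were 4.26, 4.50 and 4.42 in IFT88KD and 2.78, 3.14 and 3.27 in control quiescent arrays, a change of 1.33 (SE 0.15, adjusted p = 4.99e-06), or 2.52-fold. The IFT88KD arrays all lay above the control arrays and far below the 8.44 ± 0.12 of IFT88KD proliferating cells. A dimmer probe set of Uhrf1 gave 0.41. Its partner Dnmt1 differed by 0.19 (adjusted p = 0.566) and Chaf1b by 0.42 (adjusted p = 0.379), neither of which passed.

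Tk1 came next and was the clearest of the nucleotide genes. It measured 4.62, 4.53 and 4.39 in IFT88KD against 3.54, 3.64 and 3.26 in control arrays, a change of 1.03 (SE 0.19, adjusted p = 0.00137). Rrm1, the large subunit of ribonucleotide reductase, measured 6.67, 6.35 and 6.44 against 6.12, 5.87 and 6.11. Its change was 0.45 (SE 0.12, adjusted p = 0.0331), and its other probe set gave 0.51. The Rrm1 call was lost on leaving out any 1 of these arrays except IFT88KD replicate 2, with limma adjusted p up to 0.198. The small subunit Rrm2, with overlapping arrays of 7.64, 7.40 and 7.96 against 7.42, 7.79 and 7.52, differed by 0.09 (adjusted p = 0.861). Tyms differed by 0.11 and Dut by -0.27 (adjusted p = 0.193), with 6.86, 6.67 and 6.63 against 7.01, 7.04 and 6.91. The dimmer probe set of Dut went the other way, at 0.18, so its direction is not settled. So 2 of the 5 nucleotide genes were called and both were higher.

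Both parts of the primer-making enzyme had a member called. Pola1 measured 3.49, 3.64 and 3.83 against 2.96, 2.75 and 3.09, a change of 0.72 (SE 0.15, adjusted p = 0.00615). Prim1 measured 4.23, 4.45 and 4.62 against 3.50, 3.68 and 4.05, a change of 0.69 (SE 0.17, adjusted p = 0.0152), and its other probe set gave 0.85. Their partners did not pass, Pola2 at -0.08 with overlapping arrays and Prim2 at 0.40 (adjusted p = 0.255) with arrays apart. The Prim1 call was lost without IFT88KD replicate 3, control replicate 1 or control replicate 2.

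Of the strand-extending polymerases, Pole was called and the other 3 genes were not. Pole measured 3.45, 3.45 and 3.43 against 2.80, 2.65 and 2.48, a change of 0.80 (SE 0.19, adjusted p = 0.0122). Pole2 differed by 0.31 (adjusted p = 0.303), Pold1 by 0.25 (adjusted p = 0.628) and Pold2 by -0.21 (adjusted p = 0.336). The Pole call was lost without control replicate 3 (0.72, limma adjusted p = 0.0672). The differences between subunits of one enzyme were again not tested.

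Among origin genes Dbf4 was called, at 5.15, 5.16 and 5.15 against 4.50, 4.92 and 4.65, a change of 0.47 (SE 0.12, adjusted p = 0.0246). That call was lost on leaving out any 1 of these arrays except control replicate 2 (limma adjusted p = 0.0711 to 0.128). The other probe set of Dbf4, under the 40th percentile in both groups, gave -0.09. The kinase that Dbf4 activates, Cdc7, differed by 0.43 (SE 0.15, adjusted p = 0.119), with its control arrays all at or below the 40th percentile. Gins1 differed by 0.43 (adjusted p = 0.177), and Orc1, Orc6 and Cdc45 by 0.07, -0.03 and -0.15. Brca1, which protects stalled forks, measured 2.50, 3.20 and 2.76 against 2.14, 2.34 and 1.95, a change of 0.68 (SE 0.19, adjusted p = 0.0331). The other probe sets of Brca1, under the 40th percentile in both groups, gave 0.01, -0.06 and 0.03. The Brca1 call rested on dim control values and was lost after quantile normalisation (0.58, adjusted p = 0.0958). It was also lost without IFT88KD replicate 2 or 3, or without control replicate 1 or 3.

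The clamp, its loader, RPA and the Okazaki enzymes had no member called in quiescent cells. Pcna measured 8.58, 8.56 and 8.66 against 8.43, 8.43 and 8.54, a difference of 0.13 (SE 0.11, adjusted p = 0.635) with arrays that do not overlap. The 5 RFC genes lay between -0.01 and 0.30 and the 3 RPA genes between -0.05 and 0.16. Lig1 differed by 0.38 (adjusted p = 0.126) and Fen1 by 0.05, and the probe set of Fen1 not used gave 0.31. In the fit with the replicate number as a block Lig1 and Gins1 also passed, which made 10 calls in all. Over all genes the block raised the calls from 452 to 1187. Exo1 and Blm differed by 0.37 and 0.25 and did not pass.

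**Figure D5:**
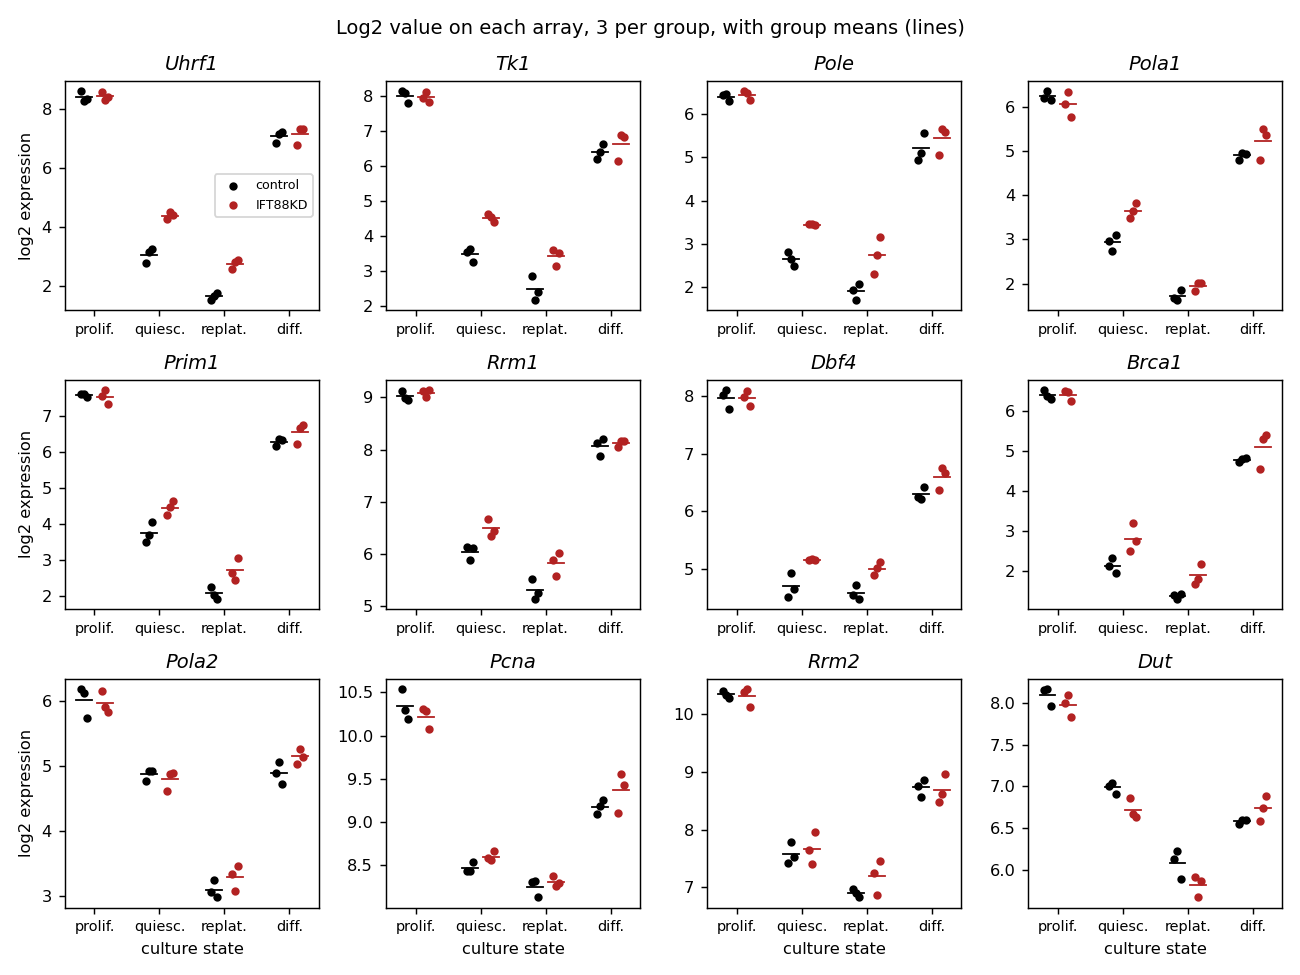
Log2 value of 12 genes on each array (points), control in black and IFT88KD in red, with group means as lines, in proliferating, quiescent, replated and differentiating cells. The first 8 panels are the genes called in quiescent cells, where the red points lie above the black; Pola2, Pcna, Rrm2 and Dut are shown as genes that were not called.

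At 2 h after replating 6 members were higher in IFT88KD cells and none was lower, where 1.52% of all genes were higher and 0.929% lower. They were Uhrf1, Tk1, Pole, Prim1, Rfc5 and Rrm1, of which all but Rfc5 were also called in quiescent cells. The median change was 0.22 against 0.01 over all genes, and 31 of 36 members lay above 0. The arrays were apart, with IFT88KD higher, for 10 members, where 9.47% of all genes did so. With the replicate number as a block, which raised the calls over all genes from 211 to 955, the count was 12. The additions were Prim2, Pole2, Lig1, Dnmt1, Dbf4 and Brca1. The count was 2 without IFT88KD replicate 3 or without control replicate 2, and 3 without control replicate 3, each in replated cells. With only the replated arrays in the fit it was 1.

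Uhrf1 measured 2.57, 2.82 and 2.87 in IFT88KD and 1.53, 1.65 and 1.76 in control replated arrays, a change of 1.10 (SE 0.15, adjusted p = 0.00018). The control arrays were all at or below the 40th percentile, so the difference is taken against dim values, and its other probe set, below that percentile in both groups, gave 0.29. Tk1 measured 3.59, 3.15 and 3.51 against 2.85, 2.18 and 2.39, a change of 0.95 (SE 0.19, adjusted p = 0.00574), which became 0.80 with adjusted p = 0.0561 without control replicate 2. Pole measured 2.29, 2.74 and 3.16 against 1.92, 1.70 and 2.07, a change of 0.84 (SE 0.19, adjusted p = 0.0155). In each of these 3 genes the IFT88KD arrays lay above the control arrays. The Pole call was lost without IFT88KD replicate 3 or control replicate 2.

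Prim1 changed by 0.64 (SE 0.17, adjusted p = 0.0435) and Rrm1 by 0.52 (SE 0.12, adjusted p = 0.0254), both with arrays apart. Their other probe sets gave smaller values, 0.42 for Prim1 and 0.33 for Rrm1. Both calls were lost without IFT88KD replicate 1 or 3, or without control replicate 2 or 3. Rfc5, a clamp loader subunit, measured 3.88, 3.46 and 3.99 against 2.9, 3.46 and 3.13, a change of 0.61 (SE 0.16, adjusted p = 0.0436) in which the groups meet at 3.46. The Rfc5 call was lost without IFT88KD replicate 1 or 3, or without control replicate 1 or 3. Pola1, called in quiescent cells, differed here by 0.24 (adjusted p = 0.542), with overlapping arrays. Dbf4 and Brca1 differed by 0.42 (adjusted p = 0.0729) and 0.51 (adjusted p = 0.174), and Dut by -0.26 (adjusted p = 0.238), with 0.14 on its other probe set.

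In differentiating cells 0 members were called by limma, where 0.139% of all genes were. An unadjusted p under 0.05 was found for 3 members and for 410 of all genes. The values lay above 0 for 35 of 36 members, with a median of 0.15 against 0.01 over all genes, from -0.04 (Rrm2) to 0.32 (Pola1 and Pole2). The mean of the members was 5.57, 6.03 and 5.98 on the IFT88KD arrays and 5.58, 5.73 and 5.83 on the control arrays, so IFT88KD replicate 1 lay with the controls. The median difference was 0.29 without that array and 0.07 without IFT88KD replicate 2. Uhrf1, at 6.79, 7.33 and 7.33 against 6.85, 7.16 and 7.22, differed by 0.07 (SE 0.15), and Tk1 by 0.21 (SE 0.19).

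The difference between states was tested directly. The IFT88KD effect was larger in quiescent than in proliferating cells for 3 members, where 0.929% of all genes were called in that direction. They were Uhrf1 (1.31, SE 0.21, adjusted p = 0.0013), Tk1 (1.07, SE 0.27, adjusted p = 0.0458) and Pola1 (0.90, SE 0.22, adjusted p = 0.0407). The call for Uhrf1 held without any single array of the 4 groups, while leaving out 1 array always lost Tk1, Pola1 or both. After quantile normalisation Tk1 (1.12) and Pola1 (0.89) had adjusted p = 0.0545 each. Prim1 (0.74, adjusted p = 0.194) and Pole (0.75, adjusted p = 0.292) did not pass, but did with the replicate number as a block (adjusted p = 0.0352 and 0.0392). Between replated and quiescent cells, and between differentiating and proliferating cells, 0 members had an effect that differed by limma, with 1 unadjusted p under 0.05 in each (of all genes, 0.058% and 0.0464% were called).

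Other genes of the same pathways, taken from lists chosen by function, are counted for comparison. Of 26 further replication genes, 4 rose and 1 fell in quiescent IFT88KD cells: the helicase subunits Mcm5 (1.26), Mcm3 (1.13) and Mcm2 (0.64) and the fork protection gene Timeless (0.65) were higher, and Pold4, the small subunit of polymerase delta, was lower (-0.61). The median of that list was 0.19. Of 22 further nucleotide synthesis genes none rose and Rrm2b, the reductase subunit used outside S phase, fell by 0.59 (adjusted p = 0.0164), from 5.78, 5.60 and 5.50 to 5.11, 4.84 and 5.16. Rrm2b was as low in proliferating IFT88KD cells, at 5.10, 4.77 and 4.55 against 5.52, 5.41 and 5.39, a difference of -0.63 (adjusted p = 0.0691, and 0.00857 with the replicate block). Of 10 regulators of the G1 to S step, Ccna2 (1.64) and E2f8 (0.58, adjusted p = 0.0499) rose. Of 9 S phase repair genes, Rad51ap1 rose (0.79).

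Mitosis genes were also higher in the same arrays. All 15 measured were higher in quiescent IFT88KD cells, with a median of 1.48, led by Birc5 (1.87), Nusap1 (1.89), Mki67 (2.27) and Top2a (1.77). In replated cells 10 of the 15 were higher, with a median of 0.93, and so were Ccna2 (1.44), E2f8 (0.65) and Mcm3 (1.11). In proliferating and differentiating cells 0 genes of these 5 lists were called by limma, and 4 and 1 had an unadjusted p under 0.05. With the replicate number as a block, 1 was called lower in proliferating cells, which was Rrm2b. In quiescent cells the block gave 6 higher and 2 lower among the further replication genes, 2 lower among the nucleotide synthesis genes and 4 higher among the G1 to S regulators. In replated cells it gave 3 higher and 1 lower among the replication genes and 4 higher and 3 lower among the nucleotide synthesis genes. Over all genes the block called 1187 in quiescent and 955 in replated cells. Whether these lists and the members differ in size of change was not tested.

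Markers of other cell types moved between the same arrays, and their part in the members' differences was not tested. Of 9 macrophage markers 3 passed the filter, and Cd14 (-1.54) and Cd68 (-1.32) were lower in quiescent IFT88KD cells. The summed signal of that list was 110 to 122 in IFT88KD and 292 to 294 in control quiescent arrays, and 63.3 to 74.5 against 133 to 149 in replated arrays. Adgre1, Ptprc, Lyz2, Cd163, Fcgr1 and Itgam were at or below the 40th percentile on all arrays. Cd68 and the fibroblast marker Lum were so on all quiescent IFT88KD arrays. Cd68 passed the filter through control quiescent and replated arrays, and Lum through control quiescent and control replated arrays only. Their lower values in quiescent IFT88KD cells were therefore partly fixed in advance. Of 6 fibroblast markers 4 passed the filter, and Pi16 (-0.46) and Lum (-1.06) were lower, with sums of 945 to 1010 against 1250 to 1610. All 9 muscle differentiation markers lay above 0 in quiescent (median 0.71), replated (median 0.72) and proliferating (median 0.63) IFT88KD cells. Of these, Myh8 was at or below the 40th percentile on all arrays of those states. Without the block 1 of the 9 was called, Myh1 (1.98) in quiescent cells. With the replicate number as a block 6, 8 and 5 of the 9 were called higher. In those states the block called 1187, 955 and 169 of all genes. Muscle list sums were 2780 to 4300 against 1800 to 2650 in quiescent and 1670 to 2200 against 904 to 1320 in replated cells. They overlapped in proliferating cells at 380 to 1950 against 131 to 1200. Of the 5 myoblast markers tested, 0 were called in quiescent or replated cells by limma, with 2 and 1 at an unadjusted p below 0.05. With the block 4 and 1 were called higher. The block also made 3 fibroblast markers lower in quiescent and 2 in replated cells. The 5 endothelial markers were at or below the 40th percentile throughout, and the adipocyte and bone and cartilage lists had no member called in quiescent or replated IFT88KD cells, except 1 bone and cartilage gene lower in replated cells with the block.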

How the data were processed

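RNA of C2C12 cells was measured on 24 Affymetrix arrays, 3 in each of 8 groups, from 8 ug of total RNA per the labels' protocols. The authors deposited log2 expression values of 22690 probe sets, made with GCOS, Affymetrix Expression Console and affy, per the submitters' processing notes. How they were normalised is not given in the sources used here. Precision is limited by the number of arrays.

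Of the probe sets, 20380 were assigned to 1 gene, 691 to several and 1555 to none, and 64 were controls. The brightest probe set by mean stood for its gene. The filter kept 8616 genes, those that exceeded the 40th percentile on 3 or more arrays. All arrays were fitted in 1 model with a coefficient per group in limma 3.58.1 (R 4.3.3), with Benjamini-Hochberg adjustment over those genes and a threshold of 0.05. A gene is called where it passes. The fit was tested on data simulated for quiescent IFT88KD against control cells, with 8616 genes. It recovered 55.2% of genes changed by 0.5 log2, 92.5% at 1 and 100% at 2, with 5 false among 170 calls. The simulated noise was independent between arrays, without the pairing by number described below. These rates may therefore not hold for the real arrays.

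Every member with a probe set was described. Genes from other lists were named by the smallest p among those past the threshold, at most 4 per list and comparison. Marker genes that passed were named with them. The members and lists were chosen with earlier results of these data known.

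Deviations from the group means, over 8616 genes, correlated at 0.257 to 0.708 between IFT88KD and control arrays of equal number in a state, against at most 0.127 for unequal numbers, so the numbers pair these arrays. A block for the number was fitted as an alternative. Other alternatives were quantile and median scaling, filters, probe set choice, array weights, a trended robust fit, fits of the compared groups only and leaving out each array.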

Additional observations from a re-analysis of the deposited data

Results flagged for a closer look

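For 3 members the IFT88KD effect differed between quiescent and proliferating cells by the test of that difference in limma. The difference of effects was 1.31 for Uhrf1, 1.07 for Tk1 and 0.90 for Pola1 (adjusted p = 0.0013, 0.0458 and 0.0407). For Uhrf1 the effect was 1.33 in quiescent and 0.03 in proliferating cells. For Tk1 it was 1.03 and -0.04, and for Pola1 0.72 and -0.18.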

How the results depend on the processing

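The count of members called in quiescent IFT88KD cells was 8, with 5 when only the quiescent arrays were fitted and 4 to 6 when 1 array was left out. In replated cells it was 6, with 12 under the replicate block, 1 with only the replated arrays fitted and 2 to 6 when 1 array was left out. For the difference of effects between quiescent and proliferating cells it was 3, with 5 under the replicate block, 1 after quantile normalisation and 1 to 2 when 1 array was left out. The block changed no other count of members in IFT88KD comparisons by more than 1.5 times. From quiescent to replated control cells, centring each array on its median turned 6 calls on the deposited scale. Pole went to 0.11, Lig1 to 0.08, Rrm1 to 0.12, Rrm2 to 0.18, Cdc7 to 0.11 and Brca1 to 0.10, none then past the threshold. For Rrm2 this holds for the probe set used, since its other probe sets gave -1.38 and -2.84 on the deposited scale. Over all genes, calls in proliferating, quiescent, replated and differentiating IFT88KD comparisons numbered 30, 452, 211 and 12, with 169, 1187, 955 and 91 under the block, 235, 812, 722 and 27 with array weights, and 0, 406, 75 and 0 with only the compared arrays fitted. The falls of all 36 members in quiescent and differentiating control cells kept their direction and call under each setting tried in which the member was tested. Causes of these changes were not tested. Members near the lowest values of an array have differences that the array may compress.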
